A study of Mus musculus with 18 samples.

Results

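Chemokine expression was followed in mouse hepatocytes across 6 groups that differ in genotype and treatment. The 10 genes described here were taken by name from the deposited table of 16873 genes: Cxcl1, Cxcl2 and Cxcl5, which attract neutrophils, Ccl2, Ccl7 and Cx3cl1, which attract monocytes, and Cxcl9, Cxcl10, Cxcl16 and Ccl20, which attract T cells. All 10 genes had a row in the table, and 8 of them reached the level required for testing, a normalized value of 10 or more in 3 or more libraries. Cx3cl1 and Ccl20 did not reach it and are given by their values alone.

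Hepatocytes came from livers of age-matched wild-type (WT) and Mtdh knockout (KO) mice without a tumour. Mtdh encodes metadherin, a protein linked to NF-kappaB signaling and RNA regulation in tumour cells. Cells of each genotype received TNFa, TGFb or a conditioned medium (CM) of Kupffer cells, the resident macrophages of the liver, that had been treated with Py8119-EVPs. Py8119 is a mouse mammary tumour cell line. Each of the 6 groups, named below as TNFa WT, TNFa KO, TGFb WT, TGFb KO, CM WT and CM KO, held 3 libraries, 18 in all. All 6 groups had received a treatment, so each contrast compares 1 treatment with another or KO with WT, and none measures a change from untreated cells. Neither the labels nor the design text gives doses, durations, the ages of the mice or the deleted region of Mtdh.

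Chemokines are small secreted proteins that bind receptors on leukocytes and direct their movement. CXCL1, CXCL2 and CXCL5 act through CXCR2, CCL2 and CCL7 through CCR2, CX3CL1 through CX3CR1, CXCL9 and CXCL10 through CXCR3, CXCL16 through CXCR6 and CCL20 through CCR6. In the liver, hepatocytes release several of these after exposure to inflammatory cytokines. TNF acts largely through NF-kappaB, which binds the promoters of many chemokine genes, whereas CXCL9 and CXCL10 respond mainly to interferons.

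The promoters of Cxcl1, Cxcl2 and Cxcl10 are shown as examples in which NF-kappaB or interferon elements were found. Each is the 250 bases before the RefSeq start site on the GRCm38.p6 build, written 5′ to 3′ on the strand of the gene, with matches to the NF-kappaB consensus and to the core of the interferon-stimulated response element (GAAA, any 2 bases, GAAA) in capitals. They lie at chr5:90890995-90891244 on the plus strand, chr5:90903649-90903898 on the plus strand and chr5:92348890-92349139 on the minus strand.
Cxcl1: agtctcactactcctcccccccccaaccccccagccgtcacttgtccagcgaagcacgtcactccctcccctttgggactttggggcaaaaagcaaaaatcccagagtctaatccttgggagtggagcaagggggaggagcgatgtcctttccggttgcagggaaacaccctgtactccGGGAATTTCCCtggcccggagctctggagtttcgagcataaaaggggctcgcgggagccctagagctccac
Cxcl2: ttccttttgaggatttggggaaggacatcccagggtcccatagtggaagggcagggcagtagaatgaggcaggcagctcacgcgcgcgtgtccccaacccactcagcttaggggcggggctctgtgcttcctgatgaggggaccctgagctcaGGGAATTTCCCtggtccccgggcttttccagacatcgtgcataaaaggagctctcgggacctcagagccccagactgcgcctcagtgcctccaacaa
Cxcl10: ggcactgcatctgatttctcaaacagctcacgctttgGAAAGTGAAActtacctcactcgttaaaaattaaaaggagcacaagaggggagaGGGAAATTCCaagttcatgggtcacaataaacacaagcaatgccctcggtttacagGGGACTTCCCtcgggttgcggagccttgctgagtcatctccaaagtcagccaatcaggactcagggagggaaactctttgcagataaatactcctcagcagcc

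Cxcl1 and Cxcl2 carried the same word, GGGAATTTCC, and each held 2 overlapping consensus matches within the capitals. It starts 71 bases before the start site in Cxcl1 and 97 bases before it in Cxcl2. That word was taken from the Cxcl1 promoter, so its presence there was fixed in advance. Read on both strands, it was found in 28 of 32841 RefSeq promoter windows of the same length (0.0853%), Cxcl1 and Cxcl2 among them. Cxcl10 held 2 separate consensus matches, GGGAAATTCC and GGGACTTCCC, and 1 match to the interferon element, GAAAGTGAAA, which starts 213 bases before its start site. Over all windows, on both strands, 3.9% held the NF-kappaB consensus and 2.98% held the interferon element. Of the 10 chemokine genes, 6 had a promoter in the RefSeq table (these 3, Cxcl9, Ccl20 and Cx3cl1), and 4 of the 6 held a consensus match. The interferon element was found in 1 of the 6, Cxcl10, and Cxcl9 and Cx3cl1 held neither element. Such matches describe letters in a window and were not tied to any measurement of binding.

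The deposited values are normalized signals per gene, on a scale where 1 read was worth about 0.688 to 1.25. The estimated depth was 19.4 M to 35.6 M reads per library (median 23.4 M). Mtdh ranged from 10063 to 13725 in WT and from 581 to 973 in KO libraries, with every KO library below every WT library. The 10 hepatocyte markers summed to between 1470510 and 3123750 per library and differed between groups. The mean sum was 1567680 in TNFa WT, 1528960 in TNFa KO, 2136930 in TGFb WT and 3015390 in TGFb KO. With CM it was 1822680 in WT and 2429600 in KO. The 10 stellate cell markers, of which 7 were tested, had a mean sum of 1622 in TNFa WT and 1911 in TNFa KO. It was 914 in TGFb WT, 1096 in TGFb KO, 1150 in CM WT and 1168.5 in CM KO. The 18 macrophage markers summed to between 5289 and 12924, 5 of the 7 neutrophil markers are in the table and summed to between 38.5 and 115, and 7 of the 9 T and NK cell markers are in the table and summed to between 5.29 and 75.3. Cd3e, a defining T cell marker, was listed at 0 in every TGFb WT library and did not exceed 16.2 elsewhere. The T and NK cell markers together did not share that order. They summed to between 32.3 and 47.7 in TGFb WT and between 5.29 and 25.2 in TNFa WT. In these bulk libraries, a change in the number of cells of a type cannot be told apart from a change in RNA per cell.

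Of the 3 neutrophil attractants, Cxcl1 had the highest level per kilobase in each group, and all 3 were lowest with TGFb. Cxcl1 (chromosome 5, 91039100 to 91040974, mm39) encodes the main mouse ligand of CXCR2. Its normalized value was 661, 605 and 661 in TNFa WT, 887, 836 and 792 in TNFa KO, 179.7, 156 and 153 in TGFb WT, 228, 388 and 358 in TGFb KO, 829, 737 and 859 in CM WT and 896, 859 and 933 in CM KO libraries. Every TGFb library lay below every TNFa and CM library, and within each treatment the KO libraries lay above the WT libraries, narrowly so with CM, where 858.9 in KO stood against 858.7 in WT. In order of group mean, CM KO, TNFa KO and CM WT were not separated beyond their spread, whereas TNFa WT, TGFb KO and TGFb WT each stood apart from the group above.

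Cxcl2 (chromosome 5, 91051730 to 91053797), a second CXCR2 ligand, showed the treatment order without a genotype difference. Its value was 335, 256 and 357 in TNFa WT, 367, 361 and 324 in TNFa KO, 158, 209.8 and 126 in TGFb WT, 123, 149.6 and 166 in TGFb KO, 546, 444 and 508 in CM WT and 508, 560.1 and 410.4 in CM KO libraries. CM libraries were highest, TNFa libraries next and TGFb libraries lowest, and at each treatment the KO and WT libraries overlapped.

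Cxcl5 (chromosome 5, 90907219 to 90909483), which encodes a CXCR2 ligand made by epithelial cells, was the lowest of the tested chemokines per kilobase in TNFa WT, TGFb WT and TGFb KO, whereas Cxcl9 was lowest in the other groups. Its value was 12.9, 49.3 and 20.7 in TNFa WT, 73.6, 53.3 and 117 in TNFa KO, 15.3, 2.38 and 23.7 in TGFb WT, 9.29, 14.7 and 14.4 in TGFb KO, 133, 79.0 and 95.4 in CM WT and 136, 168 and 301 in CM KO libraries. The value of 2.38 rests on about 2 estimated reads, and the 6 TGFb libraries held between 2 and 19. KO and WT libraries did not overlap with TNFa and with CM, and they overlapped with TGFb.

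Ccl2 was the most highly expressed of the 10 chemokines per kilobase of transcript in each of the 6 groups, and its range across treatments exceeded that of the others except Cxcl5. Ccl2 (chromosome 11, 81926397 to 81928279) encodes the principal ligand of CCR2, the receptor that draws inflammatory monocytes. Its value was 3960.3, 3132 and 4236 in TNFa WT, 3933, 4036 and 3378 in TNFa KO, 319, 348 and 435 in TGFb WT, 598, 698 and 354 in TGFb KO, 1849, 1398 and 2051 in CM WT and 2313, 2342 and 2671 in CM KO libraries. TNFa libraries were highest in both genotypes, with no separation between them. CM libraries were intermediate, and KO libraries lay above WT libraries there. In TGFb KO, 1 library, at 354, fell inside the WT range.

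Ccl7 (chromosome 11, 81936538 to 81938351), a neighbour of Ccl2 on the same strand whose product also binds CCR2, had lower values. It was 443, 346 and 318 in TNFa WT, 538, 576 and 325 in TNFa KO, 56.1, 72.7 and 88.5 in TGFb WT, 84.5, 118 and 55.0 in TGFb KO, 195, 272 and 353 in CM WT and 539, 419 and 593 in CM KO libraries. The order of group means put CM KO first and TGFb WT last, and CM KO, TNFa KO, TNFa WT and CM WT overlapped with their neighbours in that order.

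Cx3cl1 (chromosome 8, 95498637 to 95509055), which encodes the membrane-tethered chemokine fractalkine, was above 0 in only 4 of 18 libraries. These values were 4.54 in TNFa WT, 2.93 and 14.3 in CM WT and 6.88 in CM KO, and the other libraries, all those with TGFb and TNFa KO among them, were listed at 0.

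**Figure D1:**
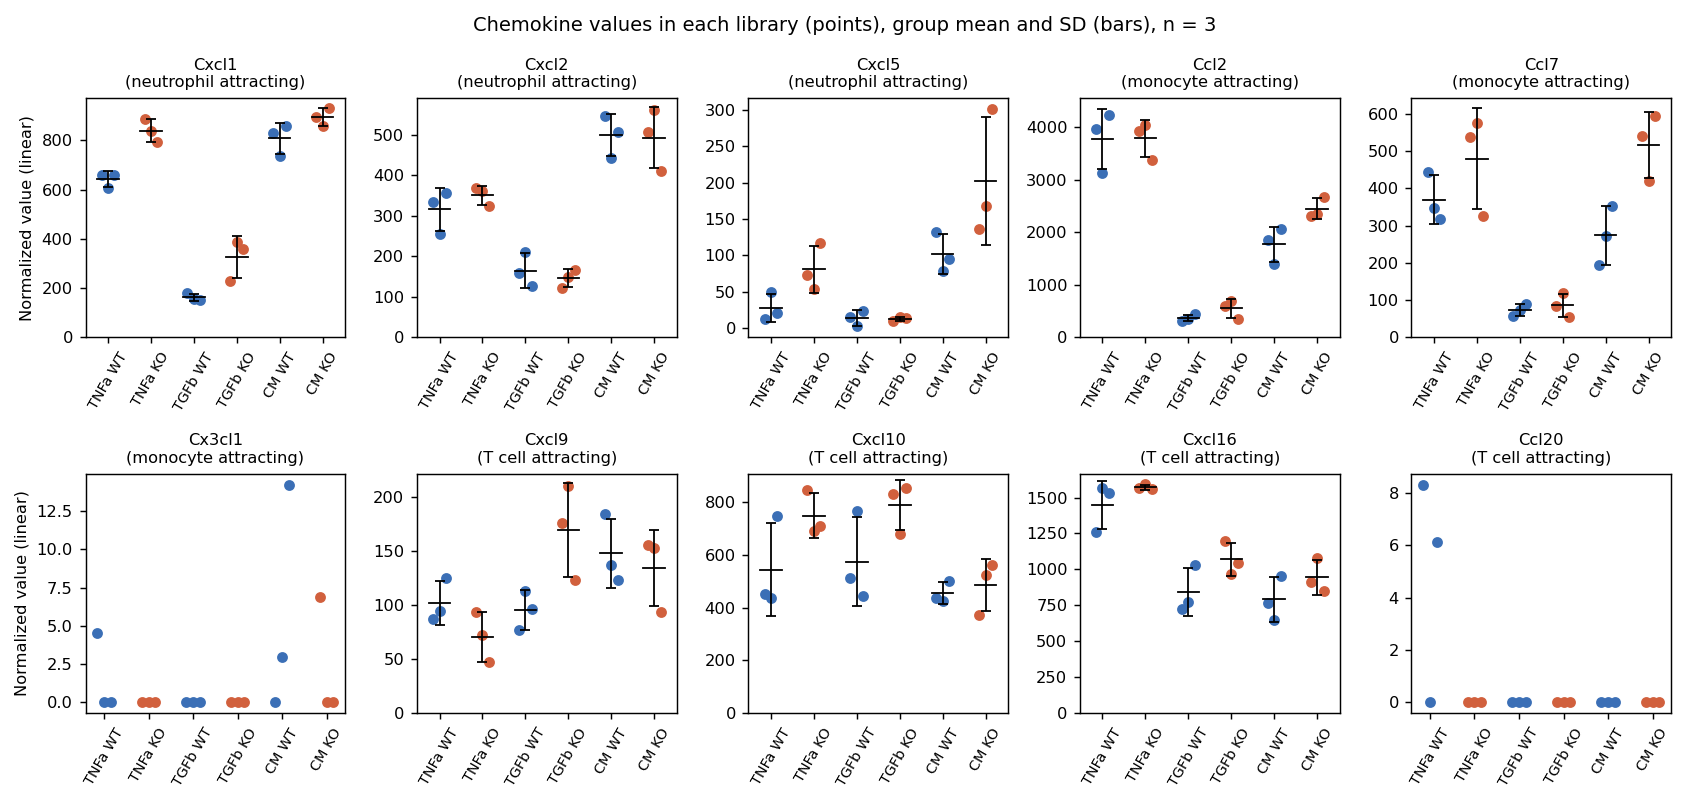
Normalized value (y axis, linear, 1 scale per gene) of each of the 10 chemokine genes in the 6 groups (x axis). Points are the 3 libraries of a group, blue for WT and orange for KO, with lines and bars for mean and SD except in the Cx3cl1 and Ccl20 panels. Ccl2 ranges from 319 with TGFb to 4236 with TNFa, whereas Cxcl10 stays between 374 and 854.

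The T cell attractants followed other orders. Cxcl10 (chromosome 5, 92494497 to 92496748), an interferon-responsive ligand of CXCR3, was 450.0, 437 and 747 in TNFa WT, 846, 689.7 and 710.4 in TNFa KO, 511, 767 and 446 in TGFb WT, 831, 680.1 and 854 in TGFb KO, 436, 425 and 502 in CM WT and 374, 524 and 563 in CM KO libraries. Each neighbouring pair of groups in the order of means overlapped, with TGFb KO highest and CM WT lowest. Cxcl9 (chromosome 5, 92469206 to 92475938), a CXCR3 ligand induced chiefly by interferon gamma, was 87.0, 94.1 and 125 in TNFa WT, 93.2, 71.8 and 46.9 in TNFa KO, 76.6, 113 and 96.6 in TGFb WT, 176, 209.7 and 123 in TGFb KO, 184, 137 and 123 in CM WT and 155, 153 and 93.3 in CM KO libraries. TGFb KO was the highest group and TNFa KO the lowest, and here too every neighbouring pair overlapped.

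Cxcl16 (chromosome 11, 70344809 to 70350810), a transmembrane chemokine bound by CXCR6 on T and NKT cells, was 1259, 1564 and 1529 in TNFa WT, 1566, 1592 and 1559 in TNFa KO, 725, 771 and 1034 in TGFb WT, 1196, 969 and 1043 in TGFb KO, 767, 648 and 956 in CM WT and 909, 1078 and 846 in CM KO libraries. The 6 TNFa libraries lay above the 12 others. Ccl20 (chromosome 1, 83094487 to 83096888), the ligand of CCR6, was above 0 in 2 libraries, both TNFa WT, at 8.32 and 6.13, and was listed at 0 in the other 16.

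Divided by exonic length, the levels can be compared between genes. In TNFa WT, Ccl2 stood at 4645 per kilobase of exon, followed by Cxcl1 at 674, Cxcl16 at 537, Ccl7 at 461, Cxcl10 at 358, Cxcl2 at 170.0, Cxcl9 at 35.3 and Cxcl5 at 17.5. In TGFb WT, Ccl2 stood at 452 per kilobase, close to Cxcl10 at 378 and Cxcl16 at 312. The T cell attractants Cxcl10 and Cxcl16 came next after Ccl2 with TGFb, ahead of Cxcl1 at 171, while in CM WT Cxcl1 came next at 848 after Ccl2 at 2172.

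The comparison of TNFa with TGFb asked which chemokines differ between the 2 cytokines. In WT, 5 of the 8 tested chemokines rose with TNFa relative to TGFb and none fell, against 13.4% of all 14455 tested genes called in either direction, 5.33% higher and 8.06% lower. Values after a gene are log2 fold changes on the log2(value + 1) scale with standard errors from the limma fit, and calls are at a Benjamini-Hochberg adjusted p below 0.05. Both tested monocyte attractants rose most: Ccl2 by 3.36 ± 0.17 (10.3-fold, limma adjusted p = 2.6e-14) and Ccl7 by 2.34 ± 0.29 (limma adjusted p = 5.2e-07). Among the neutrophil attractants, Cxcl1 rose by 1.97 ± 0.17 (limma adjusted p = 5.5e-10) and Cxcl2 by 0.95 ± 0.22 (limma adjusted p = 0.0021), whereas Cxcl5 was at 1.16 ± 0.63 (limma adjusted p = 0.28). Of the T cell attractants Cxcl16 rose by 0.79 ± 0.15 (limma adjusted p = 1.8e-04). Cxcl10 was at -0.08 ± 0.20 with a 95% interval of -0.50 to 0.33, a sign that turned with equal library totals, and Cxcl9 was at 0.10 ± 0.35 with an interval of -0.62 to 0.81. The median of the 8 was 1.06, against -0.0041 over all tested genes. Macrophage markers summed to between 6554 and 7471 in TNFa WT and between 5446 and 6044 in TGFb WT. Only 1 of the 18, Timd4, was listed at 0 in all 3 TGFb WT libraries. With TNFa, 5 of the 18 markers rose and 1 fell (3 to 6 rose without 1 library). Of the 7 tested stellate cell markers 1 rose and none fell. Of the 10 hepatocyte markers 7 fell and none rose. The part of these cell types in the chemokine values was not tested.

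In KO cells the same contrast called 7 of 8, 6 higher and 1 lower (22.4% of all genes in either direction, 10.1% higher and 12.3% lower). The values were 2.83 ± 0.17 for Ccl2, 2.49 ± 0.29 for Ccl7, 1.40 ± 0.17 for Cxcl1, 1.27 ± 0.22 for Cxcl2, 2.53 ± 0.63 for Cxcl5 and 0.56 ± 0.15 for Cxcl16, with limma adjusted p-values from 3.4e-13 for Ccl2 to 0.0045 for Cxcl16. Cxcl9 fell by 1.27 on the log2 scale (SE 0.35, limma adjusted p = 0.0074), a call lost without TNFa KO 3 (limma adjusted p = 0.056). Its TNFa KO libraries, at 46.9 to 93.2, lay below its TGFb KO libraries, at 123 to 209.7. Libraries did not overlap for 5 chemokines in WT, all higher with TNFa (29.8% of all genes, 13.5% higher and 16.4% lower), and for 7 in KO, 6 higher and 1 lower (34.1%, 16.4% and 17.7%). In KO, 3 of the 18 macrophage markers rose and none fell. Of the 7 tested stellate cell markers 1 rose and none fell, whereas all 10 hepatocyte markers fell. The part of these cell types in the chemokine values was not tested.

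**Figure D2:**
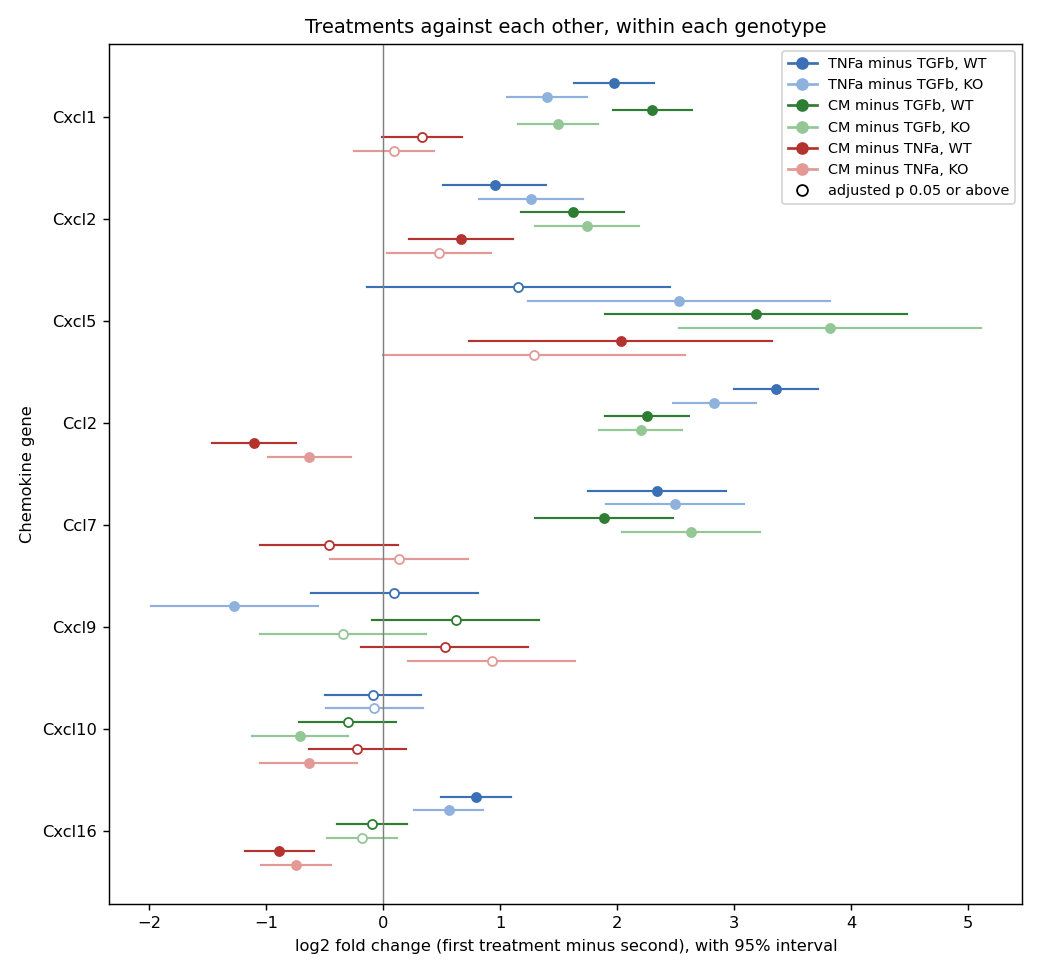
Log2 fold change (x axis) of each of the 8 tested chemokines (y axis) for TNFa against TGFb, CM against TGFb and CM against TNFa, in blue, green and red, darker for WT and lighter for KO. Points are limma estimates on the log2(value + 1) scale (open where the adjusted p was 0.05 or above) and bars their 95% intervals. Ccl2 lies at 3.36 for TNFa against TGFb in WT and at -1.10 for CM against TNFa.

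Conditioned medium set against TGFb gave a similar number of higher chemokines. In WT 5 rose and none fell (11.8% of all genes called, 5.76% higher and 6.09% lower). All 3 neutrophil attractants rose, Cxcl5 by 3.19 ± 0.63 (limma adjusted p = 7.0e-04), Cxcl1 by 2.30 ± 0.17 and Cxcl2 by 1.62 ± 0.22, as did Ccl2 by 2.26 ± 0.17 and Ccl7 by 1.88 ± 0.29. No T cell attractant passed: Cxcl9 was at 0.62 ± 0.35, Cxcl16 at -0.09 ± 0.15 and Cxcl10 at -0.30 ± 0.20. In KO these 5 genes were higher (10.6% of all genes called, 5.2% higher and 5.39% lower), with Cxcl5 at 3.82 ± 0.63, Ccl7 at 2.63 ± 0.29, Ccl2 at 2.20 ± 0.17, Cxcl2 at 1.75 ± 0.22 and Cxcl1 at 1.50 ± 0.17. Cxcl10 fell in KO, by 0.71 on the log2 scale (SE 0.20, limma adjusted p = 0.020), and lost the call without TGFb KO 1, TGFb KO 3 or CM KO 1 (limma adjusted p = 0.076, 0.084 and 0.15). Libraries did not overlap for 6 chemokines in WT, all higher with CM (27.8% of all genes, 14.6% higher and 13.2% lower), and for 6 in KO, 5 higher and 1 lower (27.2%, 13% and 14.2%). Of the 18 macrophage markers, 2 rose and 1 fell in WT, and 1 rose and none fell in KO. In WT 4 rose without TGFb WT 2, 3 without CM WT 3 or with equal library totals, and 1 without TGFb WT 3 or CM WT 1. In KO none rose without TGFb KO 1 or 3 or any 1 of the CM KO libraries. Of the 7 tested stellate cell markers 1 rose in WT and none in KO. Of the 10 hepatocyte markers 2 rose and 4 fell in WT, and none rose and 1 fell in KO. The part of these cell types in the chemokine values was not tested.

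Conditioned medium and TNFa differed gene by gene. In WT, 4 of 8 passed (12.3% of all genes, 6.81% higher and 5.46% lower). With CM the neutrophil attractants Cxcl2 (0.67 ± 0.22, limma adjusted p = 0.040) and Cxcl5 (2.03 ± 0.63, limma adjusted p = 0.031) were higher than with TNFa. The monocyte attractant Ccl2 fell by 1.10 on the log2 scale (SE 0.17, limma adjusted p = 3.7e-05) and Cxcl16 by 0.89 (SE 0.15, limma adjusted p = 6.2e-05). Cxcl1 was at 0.33 ± 0.17 and Ccl7 at -0.46 ± 0.29, neither past the threshold. The call of Cxcl2 was lost without TNFa WT 1 or 2 or any 1 of the CM WT libraries (limma adjusted p from 0.051 to 0.18), and that of Cxcl5 without TNFa WT 1 or 3 or any 1 of the CM WT libraries (0.051 to 0.15). The call of Cxcl2 was also lost with equal library totals (0.051) and the replicate block (0.052), and that of Cxcl5 with no filter (0.059) and quantile normalization (0.056). Libraries did not overlap for 5 chemokines, 3 higher and 2 lower with CM (27.1% of all genes, 15% and 12.2%). Macrophage markers summed to between 6554 and 7471 in TNFa WT and between 5289 and 5969.8 in CM WT. Of these 18 markers 3 fell and none rose (1 fell without TNFa WT 1, and 2 without any other library). Of the 7 tested stellate cell markers 1 fell and none rose. Of the 10 hepatocyte markers 7 rose and none fell. The part of these cell types in the chemokine values was not tested.

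In KO, 3 chemokines were lower with CM than with TNFa and none was higher (12.7% of all genes called, 8.38% higher and 4.32% lower). Cxcl16 fell by 0.74 (SE 0.15, limma adjusted p = 4.5e-04), Ccl2 by 0.63 (SE 0.17, limma adjusted p = 0.013) and Cxcl10 by 0.64 (SE 0.20, limma adjusted p = 0.033). The call of Ccl2 was lost without TNFa KO 1, TNFa KO 2, CM KO 1 or CM KO 2 (limma adjusted p from 0.052 to 0.058). That of Cxcl10 was lost without TNFa KO 1, TNFa KO 3 or CM KO 1 (0.058 to 0.22) and with no filter (0.053). Cxcl5 was at 1.29 ± 0.63 and Cxcl9 at 0.93 ± 0.35, both short of the threshold (limma adjusted p = 0.21 and 0.082). Cxcl9 passed without CM KO 3 (limma adjusted p = 0.045) and Cxcl5 in a fit of these groups alone (0.018). Libraries did not overlap for 3 chemokines higher and 3 lower with CM (29.2% of all genes, 15% and 14.2%). Macrophage markers summed to between 11499 and 12924 in TNFa KO and between 9473 and 9586 in CM KO, and 1 of 18 fell (5 with equal library totals). Endothelial markers summed to between 5833 and 6175 in TNFa KO and between 4409 and 4666 in CM KO, and 2 of 10 fell (5 with equal library totals, 4 without CM KO 2, and 1 without CM KO 3 or any 1 of the TNFa KO libraries). Of the 7 tested stellate cell markers 1 fell and none rose, and all 10 hepatocyte markers rose. The part of these cell types in the chemokine values was not tested. The 3 treatment contrasts of a genotype share groups, so they are not independent of each other.

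The chemokines were also averaged within roles. Each gene was centred on its mean log2(value + 1) over the 18 libraries and the genes of a role were averaged in each library, without a test. The mean of the 3 neutrophil attractants was -0.12 ± 0.22 (SD of 3 libraries) in TNFa WT, 0.61 ± 0.15 in TNFa KO, -1.49 ± 0.40 in TGFb WT, -1.12 ± 0.32 in TGFb KO, 0.89 ± 0.20 in CM WT and 1.23 ± 0.15 in CM KO. These means rank CM above TNFa above TGFb in each genotype. Between CM and TNFa, Cxcl5, the lowest of the 3 genes, weighed most, at 2.03 ± 0.63 in WT and 1.29 ± 0.63 in KO. In that contrast Cxcl1 was at 0.33 and 0.10 and Cxcl2 at 0.67 and 0.48, and none of the 3 passed in KO. For KO against WT with TNFa, Cxcl5 was at 1.66, Cxcl1 at 0.38 and Cxcl2 at 0.16, none past the threshold. The mean of Ccl2 and Ccl7, the monocyte attractants that were tested, was 1.001 ± 0.17, 1.18 ± 0.29, -1.85 ± 0.27, -1.48 ± 0.52, 0.22 ± 0.28 and 0.93 ± 0.17 in the same order of groups. In WT the TNFa libraries lay above the CM libraries, whereas in KO the 2 treatments overlapped, at 0.84 to 1.38 with TNFa and 0.76 to 1.11 with CM. With Cx3cl1 included, the monocyte mean was 0.73 ± 0.58 in TNFa WT, 0.58 ± 0.20 in TNFa KO, 0.59 ± 0.83 in CM WT and 0.74 ± 0.58 in CM KO. This put CM above TNFa in KO, within the spread. That order rested on CM KO 1, at 1.40, where Cx3cl1 was 6.88 from about 10 estimated reads. CM KO 2 and 3 were at 0.30 and 0.53, and TNFa KO libraries at 0.35 to 0.71. The mean of the 3 tested T cell attractants spanned a narrower range, from -0.22 in TGFb WT to 0.33 in TGFb KO. It averaged genes that moved in opposite directions, such as Cxcl9 (-1.27) and Cxcl16 (0.56) for TNFa against TGFb in KO. The group means of Cxcl9 alone spanned 1.27 and those of Cxcl16 1.01. With Ccl20 the mean spanned -0.25 in TGFb WT to 0.46 ± 0.51 in TNFa WT, where Ccl20 was at 8.32 and 6.13 in 2 libraries.

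**Figure D3:**
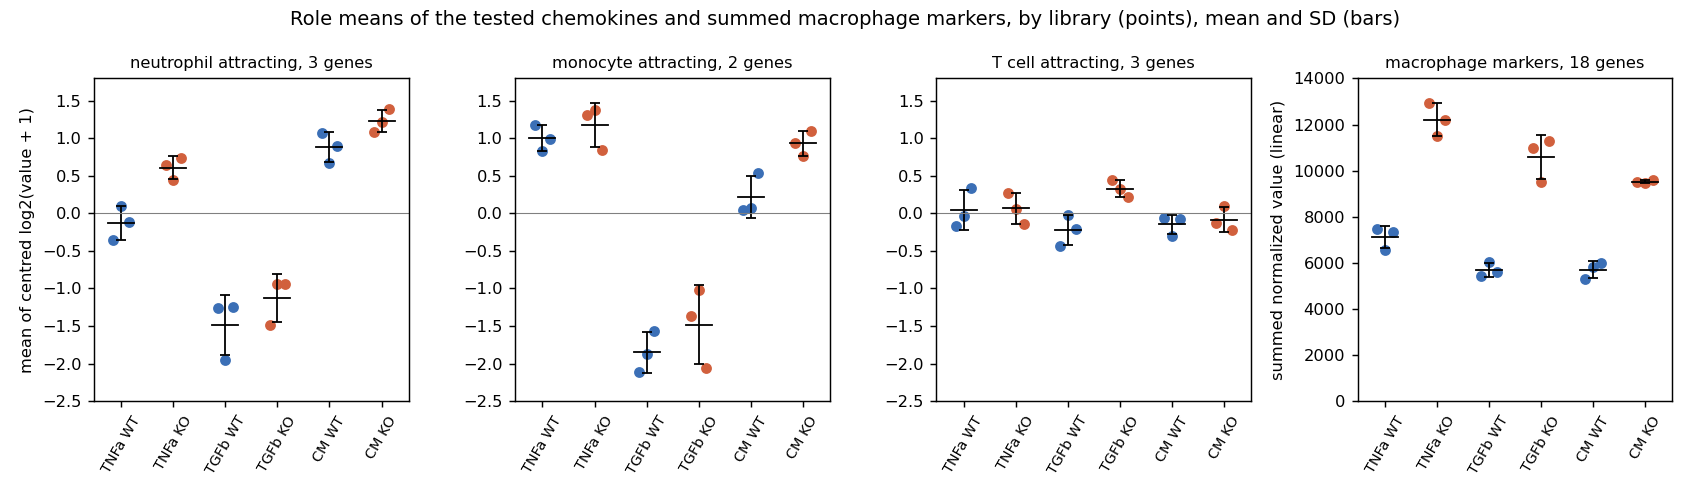
Mean centred log2(value + 1) of the tested chemokines of each role and, in the last panel, the summed normalized value of 18 macrophage markers (y axes), by group (x axis). Points are libraries, blue for WT and orange for KO, and bars the mean and SD of 3. The neutrophil mean runs from -1.49 in TGFb WT to 1.23 in CM KO, and the macrophage sums of KO libraries lie above those of WT libraries at each treatment.

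The comparison of KO with WT asked whether loss of Mtdh goes with another chemokine level under the same treatment. With TNFa, limma called 0 of the 8 chemokines (7.89% of all genes, 4.19% higher and 3.7% lower), with 3 of the 8 at an unadjusted p under 0.05. Cxcl5 was at 1.66 ± 0.63 (limma adjusted p = 0.11), Cxcl10 at 0.50 ± 0.20 (0.14), Cxcl1 at 0.38 ± 0.17 (0.18) and Cxcl9 at -0.56 ± 0.35 (0.39). Ccl2 was at 0.01 ± 0.17, with a 95% interval of -0.35 to 0.37. Without TNFa WT 3, Cxcl10 passed (limma adjusted p = 0.026). KO libraries lay above WT libraries without overlap for Cxcl1 and Cxcl5 (24.8% of all genes, 13.3% higher and 11.5% lower in KO). Macrophage markers summed to between 6554 and 7471 in WT and between 11499 and 12924 in KO, and 10 of 18 rose. Of the 10 hepatocyte markers 3 rose and 2 fell.

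With TGFb, 2 of 8 chemokines were higher in KO and none was lower (12.2% of all genes called, 7.25% higher and 4.95% lower). Cxcl1 rose by 0.95 ± 0.17 (1.94-fold, limma adjusted p = 1.2e-04), with KO libraries at 228 to 388 and WT libraries at 153 to 179.7, and it kept the call without any 1 library. Ccl2 rose by 0.54 ± 0.17 (1.45-fold, limma adjusted p = 0.040), with overlapping libraries, and lost the call without TGFb WT 1, TGFb WT 2, TGFb KO 1 or TGFb KO 2 (limma adjusted p from 0.12 to 0.25) and under 5 other settings, the replicate block among them (0.053). The 3 T cell attractants were at 0.81 ± 0.35 for Cxcl9, 0.49 ± 0.20 for Cxcl10 and 0.35 ± 0.15 for Cxcl16, with limma adjusted p-values of 0.15, 0.13 and 0.12. Cxcl10 passed without TGFb WT 2 (0.027) and Cxcl16 without TGFb WT 3 (0.031). KO libraries of Cxcl1 and Cxcl9 lay above WT libraries without overlap (26.7% of all genes, 13.9% higher and 12.8% lower in KO). Macrophage markers summed to between 5446 and 6044 in WT and between 9513 and 11291 in KO libraries, and 12 of 18 rose. Of the 10 hepatocyte markers 5 rose and none fell.

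With CM, 1 of 8 chemokines was higher in KO and none was lower (9.39% of all genes called, 5.62% higher and 3.77% lower). It was Ccl7, at 0.94 ± 0.29 (1.92-fold, limma adjusted p = 0.034), with KO libraries at 419 to 593 and WT libraries at 195 to 353. The call was lost without CM WT 1, CM WT 2, CM KO 1 or CM KO 3 (limma adjusted p from 0.080 to 0.20), with no filter and with equal library totals (0.053 for both). Its neighbour Ccl2 was at 0.48 ± 0.17 (limma adjusted p = 0.082) and passed without CM WT 3 (0.0425) and in a fit of these groups alone (0.026). Cxcl5 was at 0.92 ± 0.63 and Cxcl1 at 0.15 ± 0.17. Libraries of 4 chemokines (Cxcl1, Cxcl5, Ccl2 and Ccl7) were higher in KO without overlap, against 25.7% of all genes in either direction, 13.3% higher and 12.4% lower. Macrophage markers summed to between 5289 and 5969.8 in WT and between 9473 and 9586 in KO libraries, and 9 of 18 rose. Of the 10 hepatocyte markers 5 rose and none fell.

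Averaged over the 3 treatments, 5 of 8 chemokines were higher in KO and none was lower (20.7% of all genes called, 11.2% higher and 9.53% lower). Cxcl1 rose by 0.50 ± 0.10 (limma adjusted p = 2.5e-04) and Ccl2 by 0.34 ± 0.10 (limma adjusted p = 0.013), and both kept the call without any 1 library. Ccl7 rose by 0.50 ± 0.17, Cxcl10 by 0.36 ± 0.12 and Cxcl16 by 0.25 ± 0.08 (limma adjusted p = 0.032, 0.027 and 0.033). These 3 calls were lost with equal library totals (0.052, 0.055 and 0.084), that of Ccl7 with quantile normalization (0.066) and all 3 without single libraries. These were TNFa WT 2 and 3, TNFa KO 1 and 2, TGFb WT 1, TGFb KO 2, CM WT 1 and CM KO 1 and 3 for Ccl7, TNFa WT 1 and 2, TNFa KO 1, TGFb WT 1 and 3, TGFb KO 1 and 3 and CM KO 2 and 3 for Cxcl10, and TNFa WT 1, TGFb WT 1 and 2, TGFb KO 1, CM WT 2 and CM KO 2 for Cxcl16. Cxcl5 had the largest value, 0.96 ± 0.36, but did not pass (limma adjusted p = 0.062), although it did with a pseudocount of 5 (0.039) and without TNFa WT 2, TGFb WT 1 or TGFb WT 3 (0.028, 0.049 and 0.022). Cxcl2 was at -0.0043 ± 0.13, with a 95% interval of -0.26 to 0.25, and Cxcl9 at 0.03 ± 0.20, with an interval of -0.38 to 0.44, and the sign of both turned under another scaling. The median over the 8 genes was 0.35, against -0.0033 over all tested genes.

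By role, 1 of the 3 neutrophil attractants, both tested monocyte attractants and 2 of the 3 tested T cell attractants were higher in KO on average. Over all genes, 11.2% were called higher in that contrast. The calls of Ccl7, Cxcl10 and Cxcl16 counted here were lost with equal library totals. Macrophage markers rose in 15 of 18 genes on average, with Mpeg1 at 1.29 ± 0.06, Cd5l at 2.33 ± 0.12 and Lyz2 at 1.38 ± 0.07. Leaving out any 1 library gave 14 to 15. Endothelial markers rose in 6 of 10 (5 to 7 without 1 library). Of the 10 hepatocyte markers 5 rose and 2 fell on average (11.2% and 9.53% of all genes). Macrophages and endothelial cells also express chemokines. The part of these cells, and of the hepatocyte marker changes, in the KO values above was not tested.

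**Figure D4:**
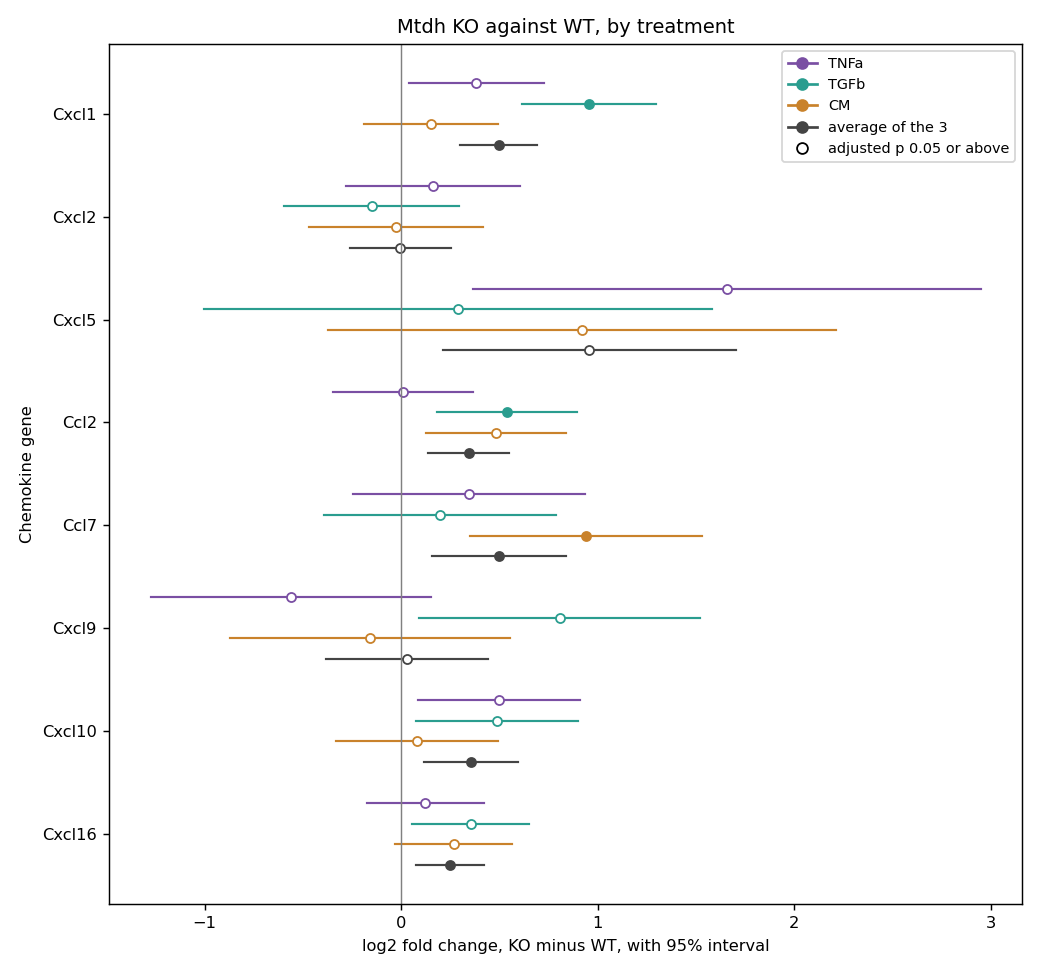
Log2 fold change of KO against WT (x axis) for each of the 8 tested chemokines (y axis), with TNFa (purple), TGFb (teal) and CM (amber) and as the average of the 3 (grey). Points are limma estimates on the log2(value + 1) scale (open where the adjusted p was 0.05 or above) and bars their 95% intervals. Cxcl1 stands at 0.95 with TGFb and at 0.15 with CM, and the Cxcl5 intervals are the widest.

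A test of whether the KO difference itself depended on the treatment called 0 of 8 chemokines by limma's F-test (1.7% of all genes), and 2 of the 8 had an unadjusted p under 0.05. Cxcl1 had the smallest (limma adjusted p = 0.13), and its KO difference was lower with CM than with TGFb by 0.80 ± 0.24 on the log2 scale (limma adjusted p = 0.14, with 0.491% of all genes called). Without TGFb KO 1, the Cxcl1 library at 228, the F-test passed (limma adjusted p = 0.023). Cxcl9 followed (limma adjusted p = 0.26), its KO difference being 1.37 ± 0.49 lower with TNFa than with TGFb (limma adjusted p = 0.20, with 1.1% of all genes called). The KO differences of single chemokines that passed with 1 treatment are therefore not shown to differ between treatments.

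Other chemokines of a fixed list of 28 were read beside these, of which 14 were tested. On average 8 were higher and 1 was lower in KO, beside 11.2% and 9.53% of all genes, among them Ccl9, a macrophage-attracting CC chemokine (1.01 ± 0.07), Cxcl12, the CXCR4 ligand (0.50 ± 0.07), and Cxcl13, a B cell attractant (1.84 ± 0.28). Between treatments, Cxcl12 went against the direction of the neutrophil and monocyte attractants. Its mean value was 757 in TNFa WT, 874 in CM WT and 2090.3 in TGFb WT, a log2 difference of -1.46 ± 0.12 for TNFa against TGFb in WT (limma adjusted p = 3.2e-10) and of -1.25 ± 0.12 for CM against TGFb. Ccl6, a CC chemokine of myeloid cells, rose by 3.57 ± 0.72 and 4.61 ± 0.72 in these contrasts, from a mean of 6.75 in TGFb WT. In WT, 2 of the 14 were higher and 1 was lower with TNFa than with TGFb (5.33% and 8.06% of all genes).

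Of 23 chemokine receptor genes, 16 were tested, and 4 were higher and 1 lower in KO on average (11.2% and 9.53% of all genes). They included Cxcr4, the receptor of CXCL12 (0.82 ± 0.15), Ccrl2, an atypical receptor (0.99 ± 0.22), and Ackr3, a scavenger of CXCL12 (2.32 ± 0.55). Ackr2, which clears inflammatory CC chemokines, fell by 3.28 on the log2 scale with TNFa relative to TGFb in WT (SE 0.69, limma adjusted p = 9.1e-04). In that contrast 1 of the 16 was lower and 0 were higher (8.06% and 5.33% of all genes), and 2 were higher with equal library totals. Among 8 tested genes that trim chemokines or control their RNA, 2 were higher and 1 lower in KO on average (11.2% and 9.53% of all genes). The median of the 8 was 0.015. Zfp36, whose product destabilises cytokine mRNA, was higher (0.47 ± 0.07), as was Dpp4, a protease that trims CXCL10 (0.35 ± 0.07). Adam10, which sheds CXCL16 and CX3CL1, was lower (-0.19 ± 0.05).

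All 21 genes of the NF-kappaB list were tested. In WT, 9 were higher and 2 lower with TNFa than with TGFb (5.33% and 8.06% of all genes, median 0.31, and 6 to 8 higher without 1 library). The higher genes included Tnfaip3, the feedback inhibitor A20 (0.90 ± 0.10), Vcam1, an adhesion molecule (1.47 ± 0.17), and Birc3 (0.78 ± 0.12). With CM relative to TNFa in WT, 2 were higher and 5 lower (6.81% and 5.46% of all genes). Without TNFa WT 3 or CM WT 1, 1 was higher and 2 were lower, without TNFa WT 2 1 was higher and 4 were lower, and without CM WT 3 or with no filter 2 were higher and 3 lower. In a fit of these groups alone 1 was higher and 3 were lower. Nfkbiz, which encodes a nuclear inhibitor-like protein, rose by 1.23 ± 0.14, and Vcam1 fell by 1.09 (SE 0.17). For KO against WT, 1 was higher with TNFa, 7 with TGFb, 3 with CM and 5 on average, and none was lower. The shares of all genes higher in KO were 4.19%, 7.25%, 5.62% and 11.2%, so the count with TNFa was near its background. With equal library totals 4 were higher and 3 lower on average. Vcam1 was at 0.84 ± 0.10, Nfkbia, which encodes the main NF-kappaB inhibitor, at 0.45 ± 0.07 and Tnfrsf1b, a TNF receptor, at 0.38 ± 0.05 on average.

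All 16 genes of the interferon signaling list were tested too. With TNFa relative to TGFb in WT, 4 were higher and none lower (5.33% and 8.06% of all genes, 7 higher with equal library totals, and 2 to 4 without 1 library), with Stat2, a signal transducer of the interferon receptors, at 0.68 ± 0.16, while the interferon-responsive Cxcl9 and Cxcl10 did not pass in that contrast. In KO, 2 were higher and 5 lower on average (11.2% and 9.53% of all genes), so the count of higher genes was near its background. The 16 values ran from -0.85 to 0.93. Stat2 fell by 0.85 (SE 0.09) and Tyk2, a kinase of the interferon receptors, by 0.39 (SE 0.11). In the same contrast Cxcl10 stood at 0.36, a call lost with equal library totals, and Cxcl9 at 0.03.

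The genes most like each chemokine were found as those with the smallest root mean square difference over the 18 libraries after centring, among tested genes whose mean reached 50. Ccl2 and Ccl7 named each other first, at 0.45 on the log2 scale, followed by Atp13a4 (0.45) and Gsta1 (0.52) for Ccl2 and by Sprr1a (0.48) and Tlr4 (0.50) for Ccl7. Cxcl1 was closest to Car13 (0.33), Elovl6 (0.37) and Sprr1a (0.38), and Cxcl2 to Rdh11 (0.27), Dusp6 (0.32) and Steap2 (0.34). Cxcl16 was closest to Nop2 (0.19), Trir (0.20) and Srxn1 (0.21), and Cxcl9 to Klhl13 (0.26) and Lpin1 (0.31). For Cxcl5 the closest, Hkdc1, lay at 0.96, farther than for any other chemokine searched. Cxcl10 spanned less than 1 log2 unit over the group means (0.79) and was left out of this search.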

How the data were processed

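RNA of 18 hepatocyte libraries (6 groups of 3) was sequenced. In the deposited table each gene has a normalized signal in every library, made by the authors with Partek, STAR 2.7.8a and DESeq2 on the mm39 build, per the submitters' processing notes, which give no order or settings. Up to 200 reads, between 71.4% and 77.0% of a library's values lay within 0.05 reads of a whole multiple of 1 step, so whole reads were not recovered and no count test was run.

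Values were tested as log2(value + 1) with limma-trend (limma 3.58.1, R 4.3.3) in genes with at least 10 in at least 3 libraries (14455), with 6 group means and Benjamini-Hochberg adjusted p below 0.05. The residual degrees of freedom were 12 and the prior 17. The model was tested on simulated data. P-values measure the spread between libraries, which the labels call biological replicates without naming mice. Lengths are those of protein-coding exons in GENCODE M21.

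The chemokines and gene lists were chosen with earlier results of these data known, so no list was tested. All 10 chemokines and Mtdh are named. Of the other lists up to 3 called genes with the smallest p-values per comparison could be named, and of genes alike the 3 closest. Some named genes are not reported here. Alternatives were other pseudocounts, filters and scalings, models of just the 2 groups at hand, the replicate block and leaving out each library. Tables were handled with pandas 2.3.3 in Python 3.11.15 (NumPy 2.4.6) and figures drawn with matplotlib 3.10.9.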

Additional observations from a re-analysis of the deposited data

How the results depend on the processing

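For KO against WT, the number of the 8 tested chemokines past the threshold moved with the processing. With TGFb it was 1 in place of 2 with no filter, equal library totals, quantile normalization, a fit of only the groups compared and the replicate block. With CM it was 0 in place of 1 with no filter or equal totals and 2 in a fit of only the groups compared, and for the average over treatments it was 2 in place of 5 with equal totals. Without 1 library at a time it ranged from 0 to 1 with TNFa, 1 to 3 with TGFb, 0 to 2 with CM, 3 to 5 for the average and 0 to 1 for the dependence of the KO difference on treatment. For CM against TNFa it ranged from 2 to 3 in WT and 1 to 4 in KO. A fit of only the groups compared gives no value for the average or for that dependence.

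Signs turned only for values that did not pass. With equal totals these were Cxcl9 on average (-0.0218), Cxcl10 for TNFa against TGFb in WT (0.0322) and KO (0.183), and Cxcl1 (-0.0595) and Ccl7 (-0.0190) for CM against TNFa in KO. The average of Cxcl9 was -0.0843 with quantile normalization and that of Cxcl2 0.000484 with recomputed size factors. Without 1 library at a time, KO against WT ranged from -0.12 to 0.10 for Ccl2 with TNFa, -0.327 to 0.0393 for Cxcl2, -0.57 to 0.87 for Cxcl5 and -0.0615 to 0.481 for Ccl7 with TGFb, -0.12 to 0.10 for Cxcl2, -0.285 to 0.0809 for Cxcl9 and -0.0355 to 0.259 for Cxcl10 with CM, and -0.0632 to 0.0590 for Cxcl2 and -0.0455 to 0.117 for Cxcl9 on average. Between treatments, Cxcl9 ranged from -0.0587 to 0.226 and Cxcl10 from -0.33 to 0.14 for TNFa against TGFb in WT, Cxcl10 from -0.354 to 0.0310 for CM against TNFa in WT, Cxcl16 from -0.240 to 0.0622 for CM against TGFb in WT and Ccl7 from -0.12 to 0.29 for CM against TNFa in KO. The cause was not tested.

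Equal totals moved the median log2 fold change of all genes to -0.12 for KO against WT with TGFb, 0.11 for TNFa against TGFb in WT, 0.29 for the same in KO, -0.17 for CM against TNFa in KO and 0.10 for CM against TGFb in KO. They changed the split of higher and lower genes from 1048 and 716 to 830 and 1494 for KO with TGFb, from 813 and 545 to 627 and 874 for KO with CM, from 1614 and 1377 to 1365 and 2009 for the average, from 771 and 1165 to 1366 and 873 for TNFa against TGFb in WT, from 1458 and 1779 to 3756 and 1119 for the same in KO, from 985 and 789 to 857 and 1062 for CM against TNFa in WT, from 1211 and 624 to 878 and 1906 for the same in KO, from 832 and 880 to 1102 and 626 for CM against TGFb in WT and from 751 and 779 to 1241 and 491 for the same in KO. Quantile normalization gave 1158 and 928 for CM against TNFa in KO.

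Whether a replicate number pairs libraries is not given, and same-numbered libraries did not deviate together (correlations from -0.07 to 0.05, over 0.1 for every pair in 0 of 9 comparisons). The replicate block gave 1 call for KO with TGFb and also ended that of Cxcl2 for CM against TNFa in WT. Counting only members that pass the filter, a choice made after the data were seen, moved the role means to 1.18 for monocyte attractants in TNFa KO, -1.85 in TGFb WT and 0.33 for T cell attractants in TGFb KO.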
